A study of Saccharomyces cerevisiae with 25 samples.

Results

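The first hour without phosphate was followed in 3 RNA sequencing libraries of Saccharomyces cerevisiae, taken 15, 30 and 60 min after transfer to medium without phosphate, and set against 1 library from high phosphate medium at 0 min. These 4 libraries were picked by their labels from the 25 of one time course. The library at 45 min, with 18553 listed reads in 601 genes, was left out for its depth. Of the 6650 named genes in the deposited table, 3738 had a value in all 4 libraries and make up the set described here. All 4 libraries, the one from high phosphate included, came from the haploid laboratory strain BY4741 with a PHO84 promoter driving YFP and a DAmP allele of PHO85. A DAmP allele carries an insertion behind the stop codon that lowers the amount of messenger RNA, so the 0 min cells were not wild type for the phosphate pathway either, and no strain with intact PHO85 was analysed here. The labels do not say how many cultures or clones were used.

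Each time was sampled by 1 library, so the 3 times stood in for replicates of the first hour, and change between 15 and 60 min counted as spread. High phosphate had 1 library, whose variation could not be measured and was taken to equal theirs. In the comparison of these 3 times with high phosphate, a p-value reflects no spread other than that among the 3 first hour libraries. The high phosphate library added no spread of its own. No cells were moved into fresh medium with phosphate, so effects of the transfer itself and of phosphate loss cannot be told apart. In bulk RNA, fewer cells expressing a gene and less of its RNA per cell cannot be told apart either.

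When phosphate is plentiful, the cyclin-dependent kinase Pho85 with its cyclin Pho80 phosphorylates the transcription factor Pho4 and keeps it out of the nucleus. When phosphate runs short, the inhibitor Pho81 blocks the kinase, and Pho4 with its partner Pho2 switches on the PHO regulon, which holds transporters, secreted and vacuolar phosphatases and the polymerase that stores phosphate as vacuolar polyphosphate. Separately, yeast cells that meet stress or slow their growth raise a general stress programme driven by Msn2 and Msn4 and lower the genes that build ribosomes.

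The upstream sequences of 7 genes are shown because they carry the DNA motifs named for these programmes and because the genes rose or fell among the most. Each run is 300 bases, beginning 400 bases before the coding start, read 5′ to 3′ on the gene's strand from the R64 genome in RefSeq. The first set comes from the PHO regulon, where capitals mark CACGTG or CACGTT on either strand (AACGTG is CACGTT on the other strand), the motifs bound by Pho4. They lie at chrVIII:375201-375500 for SPL2, chrXIII:25901-26200 for PHO84, chrXVI:517119-517418 for VTC3 and chrX:413500-413799 for VTC4, all on the minus strand.
SPL2: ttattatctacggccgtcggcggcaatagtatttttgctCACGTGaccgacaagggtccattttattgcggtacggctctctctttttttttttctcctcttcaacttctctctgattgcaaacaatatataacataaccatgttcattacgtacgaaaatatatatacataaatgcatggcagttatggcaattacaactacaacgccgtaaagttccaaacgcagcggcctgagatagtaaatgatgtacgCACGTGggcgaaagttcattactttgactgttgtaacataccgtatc
PHO84: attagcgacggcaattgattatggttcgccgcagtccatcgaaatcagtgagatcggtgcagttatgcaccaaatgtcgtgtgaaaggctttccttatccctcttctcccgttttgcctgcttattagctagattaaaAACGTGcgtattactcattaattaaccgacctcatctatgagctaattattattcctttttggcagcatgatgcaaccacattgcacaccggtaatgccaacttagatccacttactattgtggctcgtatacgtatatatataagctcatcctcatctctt
VTC3: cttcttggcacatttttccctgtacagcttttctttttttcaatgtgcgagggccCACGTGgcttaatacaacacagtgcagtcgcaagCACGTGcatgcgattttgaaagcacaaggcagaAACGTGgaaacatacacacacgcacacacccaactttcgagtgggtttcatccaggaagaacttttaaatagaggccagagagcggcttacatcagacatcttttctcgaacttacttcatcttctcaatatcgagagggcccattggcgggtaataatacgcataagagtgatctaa
VTC4: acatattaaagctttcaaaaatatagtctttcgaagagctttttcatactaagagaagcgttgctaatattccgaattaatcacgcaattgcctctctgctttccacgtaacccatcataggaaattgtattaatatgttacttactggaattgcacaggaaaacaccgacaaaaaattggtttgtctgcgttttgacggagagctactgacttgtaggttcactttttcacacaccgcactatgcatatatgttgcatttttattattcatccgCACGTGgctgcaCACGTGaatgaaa
SPL2 and VTC4 each hold CACGTG at 2 places in the window, VTC3 holds it at 2 and CACGTT at 1, and PHO84 holds CACGTT at 1. The letters of sites further upstream, if any, are outside the window.

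HSP42, a small heat shock protein gene, stands for the stress programme (chrIV:806221-806520, plus strand), and capitals mark AGGGG, the stress response element bound by Msn2 and Msn4.
HSP42: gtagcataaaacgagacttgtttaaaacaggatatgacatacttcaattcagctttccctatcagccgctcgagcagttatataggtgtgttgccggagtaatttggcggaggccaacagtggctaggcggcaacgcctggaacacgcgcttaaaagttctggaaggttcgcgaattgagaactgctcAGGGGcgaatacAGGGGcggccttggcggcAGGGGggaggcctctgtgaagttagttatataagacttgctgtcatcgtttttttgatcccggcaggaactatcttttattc
NSR1 (chrVII:807757-808056, minus strand) and DBP2 (chrXIV:413239-413538, plus strand), a nucleolin-like and an RNA helicase gene that fell, stand for ribosome building. Capitals mark GATGAG, which on the other strand reads CTCATC, and the run AAAATTT on either strand, the motifs called PAC and RRPE after the ribosome biogenesis and RNA polymerase genes they were found in.
NSR1: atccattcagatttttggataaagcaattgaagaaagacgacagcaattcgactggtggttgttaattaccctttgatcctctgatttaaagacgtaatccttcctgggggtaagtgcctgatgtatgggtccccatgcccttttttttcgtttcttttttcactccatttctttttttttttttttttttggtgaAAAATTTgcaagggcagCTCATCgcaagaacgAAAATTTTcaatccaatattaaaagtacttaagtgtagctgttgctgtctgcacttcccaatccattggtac
DBP2: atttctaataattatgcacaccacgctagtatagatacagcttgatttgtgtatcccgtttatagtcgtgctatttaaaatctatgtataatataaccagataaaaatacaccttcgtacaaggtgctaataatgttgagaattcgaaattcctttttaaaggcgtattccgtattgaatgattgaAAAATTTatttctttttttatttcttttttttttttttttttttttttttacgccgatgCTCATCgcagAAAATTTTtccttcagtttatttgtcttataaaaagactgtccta
HSP42 holds AGGGG at 3 places. Its window also holds the heat shock element, counted below for the Hsf1 list and left in lower case here. Matches on either strand begin 243 and 238 bases before the coding start. In both NSR1 and DBP2 an AAAATTT lies on either side of 1 GATGAG.

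Levels are reads per 1000000 listed reads (RPM), 1 value a library, as worked out from the values themselves, since 2 to the power of each column, 0 min included, sums to 1000000; the labels speak of normalization to the first time point, which the columns do not show. The 0 min library was much deeper than the others, with 4954493 listed reads in 5589 genes, against 340264 reads in 3866 genes at 15 min, 1527591 in 5192 at 30 min and 570427 in 4494 at 60 min. The lowest value of each library was read as 10 reads, from the spacing of its low values, and genes below it have no value. The lowest level that could be listed was 29.4 RPM at 15 min and 2.02 RPM at 0 min. A gene low in high phosphate could therefore enter the set only by being at 29.4 RPM or more at 15 min. This touches 383 tested genes under 29.4 RPM at 0 min, among them 18 of the genes called higher below. The strain labels were checked on marker genes. HIS3, LEU2, MET17 and URA3, deleted in BY4741, had no value in any of the 4 libraries, and MFA1, MFA2, STE2, STE6, AGA2 and BAR1, which mark mating type a, had one in all 4. PHO85 was listed at 0 min, at 5.65 RPM, and in none of the first hour libraries, so the DAmP allele could not be checked.

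Within the first hour 82 genes rose against 0 min, 2.19% of the 3738 tested, and 17 fell, 0.455% (limma, adjusted p under 0.05). Transcripts of phosphate uptake and storage led the rise, beside genes of the stress response, of pyruvate and citrate metabolism and of protein folding. The falls included genes for building ribosomes and their RNA polymerase, and the RNA helicase gene DBP2 had the largest. An unadjusted p under 0.05 was seen for 571 genes, 15.3%. By size alone, 109 genes (2.92%) were at least 2-fold above 0 min in every library of the first hour and 18 (0.482%) at least 2-fold below, and 66 of the 82 risers and 8 of the 17 fallers were among them. Of the 109, 55 were under 29.4 RPM at 0 min, so they could enter the set only by being higher at 15 min. The median log2 change of all tested genes was 0.09. Of the 82 risers, 44 stood highest at 60 min, 28 at 15 min and 10 at 30 min. The same split was not counted over all tested genes, and the libraries differ in depth, so this is only a description.

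The balance of rises and falls depended on the starting level. Among the 1317 genes at 118 RPM or more at 0 min, 4 times the lowest level listed at 15 min, no gene was missing in the first hour. There 47 genes (3.57%) were higher and 62 (4.71%) lower (limma, adjusted p under 0.05), and the median log2 change was -0.08. By size, 18 (1.37%) were at least 2-fold above 0 min in every first hour library and 14 (1.06%) at least 2-fold below. The counts also rested on single libraries, being 108 higher and 67 lower without 15 min, 32 and 0 without 30 min, and 96 and 32 without 60 min, with unadjusted p under 0.05 for 389 genes without 30 min. When limma's variance moderation took no account of the mean level and was not robust, 1 gene was higher and 0 lower, with 458 at an unadjusted p under 0.05, and no gene of the PHO regulon, stress, Hsf1, TCA cycle, ribosome biogenesis or RNA polymerase lists described next was called.

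**Figure D1:**
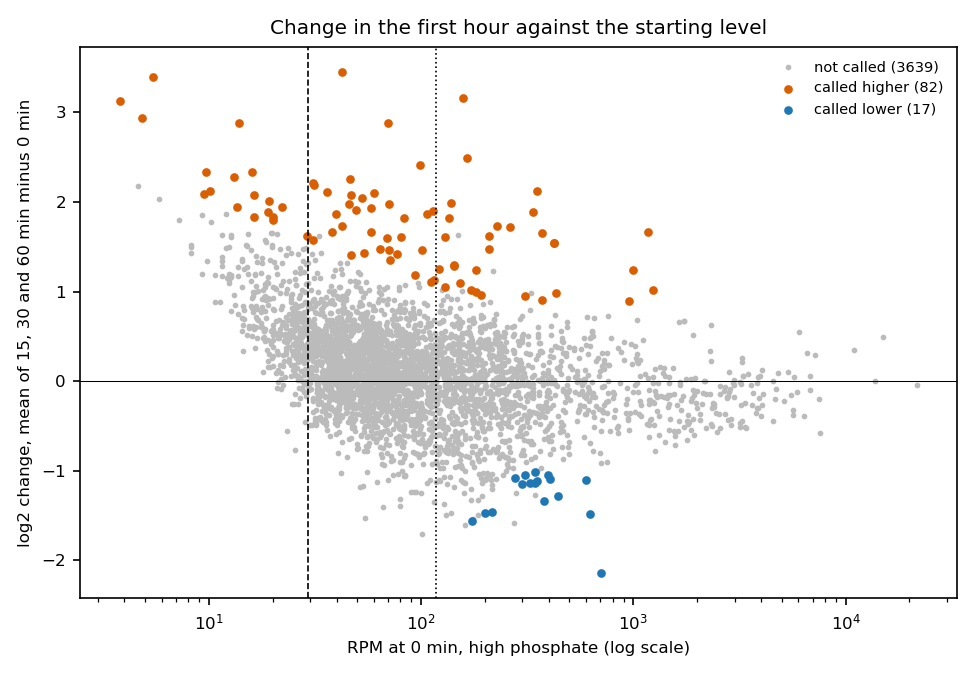
Log2 change in the first hour (mean of 15, 30 and 60 min minus 0 min) against the 0 min level in RPM on a log axis, 1 point a gene, with genes called higher or lower by limma in colour. Left of the dashed line at 29.4 RPM few genes lie below 0, because a gene had to reach that level at 15 min to be listed, and the dotted line marks 118 RPM.

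The PHO regulon list has 20 genes, of which 18 were tested, and 13 rose against 2.19% of all tested genes, while none fell against 0.455%. Above 0 min at all 3 times stood 17 of the 18, against 36% of all genes. PHO89, PHO8 and PHM8 were under 29.4 RPM at 0 min, so they could be tested only because they were higher at 15 min. The list's median log2 change was 1.80, against 0.09 for all genes. The shift was already large at 15 min, with a median log2 change of 1.60, and was 1.62 at 30 min and 2.36 at 60 min. The share of listed reads taken by the regulon was 0.186% at 0 min, 0.635% at 15 min, 0.703% at 30 min and 1.04% at 60 min (exact 95% intervals 0.182 to 0.189, 0.609 to 0.663, 0.690 to 0.716 and 1.01 to 1.07, for counting error only). The count of risers was 14 without 15 min, 9 without 30 min and 14 without 60 min. The list was drawn up with earlier results of these data known.

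Genes of phosphate uptake were among the largest rises. SPL2, which encodes a small regulator that lowers low-affinity uptake, was listed at 42.4 RPM at 0 min, 312 at 15 min, 491 at 30 min and 650 at 60 min. All 3 first hour libraries lay far above 0 min, and each later one above the one before. SPL2 had the largest rise of all tested genes, 10.9-fold on average (log2 change 3.45, SE 0.32; limma, adjusted p = 1.73e-06), at 8.86 ± 0.54 log2 RPM (SD, n = 3) in the first hour, against 5.41 at 0 min.

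PHO84, the high-affinity phosphate transporter gene, had 69.6 RPM at 0 min, 561 at 15 min, 384 at 30 min and 631 at 60 min. Its level at 15 min was thus 8.06-fold that at 0 min, close to that at 60 min, and the mean log2 change was 2.88 (SE 0.28; limma, adjusted p = 1.59e-06). How reads from the PHO84 promoter reporter were assigned is not given in the sources used here. PHO89, the sodium-coupled phosphate transporter gene, was at 15.9, 79.4, 46.5 and 142 RPM at 0, 15, 30 and 60 min. Its rise of 5.06-fold (log2 change 2.34, SE 0.51; limma, adjusted p = 0.0125) came from under the lowest level listed at 15 min, which it had to pass to be tested, and was not called under quantile normalization (limma, adjusted p = 0.083). PHO86, needed for Pho84 to leave the endoplasmic reticulum, was at 122, 226, 315 and 345 RPM at these times, a rise of 2.39-fold (log2 change 1.26, SE 0.28; limma, adjusted p = 0.0154), not called without 30 min (limma, adjusted p = 0.269).

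GIT1, the glycerophosphoinositol transporter gene, was listed only at 0 min, at 3.03 RPM, so nothing can be said of its first hour. The low-affinity transporters did not pass the test. PHO90 was at 119, 112, 103 and 85.9 RPM at 0, 15, 30 and 60 min (log2 change -0.26, SE 0.34) and PHO91, on the vacuole, at 76.3, 112, 94.3 and 94.7 RPM (log2 change 0.39, SE 0.35). PHO88, counted with them, was at 1076, 1302, 1158 and 1353 RPM (log2 change 0.24, SE 0.20), and PHO87 was not listed at 15 min.

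The phosphatase genes differed in timing. PHO12, encoding a secreted acid phosphatase, was at 157 RPM at 0 min, 1031 at 15 min, 1194 at 30 min and 2232 at 60 min, a rise of 8.91-fold (log2 change 3.16, SE 0.35; limma, adjusted p = 3.77e-04). Its near-identical copy PHO11 was at 99.4, 356, 505 and 831 RPM, a rise of 5.34-fold (limma, adjusted p = 0.00305). Counting may have split reads between this pair, so the level of either is uncertain. PHO8, the vacuolar alkaline phosphatase gene, was at 22.2, 67.6, 81.8 and 112 RPM, a rise of 3.84-fold (limma, adjusted p = 0.0125) from under the lowest level listed at 15 min, and not called without 30 min (limma, adjusted p = 0.179). PHO5, the main secreted acid phosphatase gene, was at 149, 399, 318 and 774 RPM. All 3 values were more than 2-fold above 0 min, but their spread was wide and the log2 change of 1.63 (SE 0.40) did not pass (limma, adjusted p = 0.0602). It passed without 60 min (limma, adjusted p = 0.00207, log2 change 1.25), scaled to reads outside ribosomal protein genes (limma, adjusted p = 0.0497) and with the deeper later libraries in the fit (limma, adjusted p = 0.0403).

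All 4 subunit genes of the VTC complex, the vacuolar polyphosphate polymerase, rose. VTC3 was at 164 RPM at 0 min, 879 at 15 min, 808 at 30 min and 1113 at 60 min (9.85 ± 0.24 log2 RPM in the first hour, SD, n = 3, against 7.36 at 0 min). Its rise was 5.63-fold (log2 change 2.49, SE 0.24; limma, adjusted p = 1.59e-06). VTC4, the catalytic subunit gene, was at 139, 435, 527 and 719 RPM, a rise of 3.95-fold, and VTC1 at 372, 976, 1202 and 1376 RPM, a rise of 3.15-fold (limma, adjusted p = 1.20e-04 for both). VTC2 was at 182, 347, 469 and 484 RPM, a rise of 2.35-fold (limma, adjusted p = 0.00878) that was not called without 30 min (limma, adjusted p = 0.217). VTC2 and VTC3 encode alternative subunits of the complex, and their rises differed in size, which was not tested.

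Genes that recover phosphate inside the cell did not pass. GDE1, a glycerophosphocholine phosphodiesterase gene, was at 32.3, 97.0, 67.4 and 63.1 RPM at 0, 15, 30 and 60 min, PHM8, a lysophosphatidic acid phosphatase gene, at 21.6, 44.1, 53.0 and 92.9 RPM, and HOR2 (now GPP2), a glycerol phosphatase gene, at 65.0, 76.4, 114 and 163 RPM. Every value was above its 0 min level. The log2 changes were 1.21, 1.48 and 0.79 (limma, adjusted p = 0.142, 0.12 and 0.347). PHM6, of unknown function, was at 60.3, 259, 202 and 335 RPM, a rise of 4.303-fold (limma, adjusted p = 2.01e-04).

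Among the regulators, PHO81, the inhibitor of Pho80-Pho85 and itself a Pho4 target, rose. It was at 71.0, 159, 198 and 240 RPM at 0, 15, 30 and 60 min, each time above the last, 2.76-fold on average (log2 change 1.46, SE 0.31; limma, adjusted p = 0.00889). Without 30 min that call was lost (limma, adjusted p = 0.208), at a log2 change of 1.46. Pho4 and the cyclin were too low for the 15 min library. PHO4 was at 31.9 RPM at 0 min, 10.5 at 30 min and 50.8 at 60 min, PHO80 at 16.02, 16.4 and 21.0 RPM at the same times, and neither had a value at 15 min. PHO2 was tested, with values of 20.8, 35.3, 12.4 and 24.5 RPM at 0, 15, 30 and 60 min that straddle 0 min (log2 change 0.09, SE 0.70). KCS1, an inositol pyrophosphate kinase gene counted in the regulon, was the one member not above 0 min at all 3 times, at 67.01, 49.96, 54.3 and 99.9 RPM. VIP1, which makes the inositol pyrophosphate tied to Pho81, was at 58.7, 82.3, 71.4 and 110 RPM, and did not pass (limma, adjusted p = 0.557). Of 6 tested genes for other cyclins of Pho85, such as PCL6 and CLG1, and 6 for enzymes of polyphosphate and inositol phosphates, such as IPK1, DDP1 and PPN1, none passed in either direction. Of all genes 2.19% rose and 0.455% fell, so 0 calls among 6 say little. The median log2 change was 0.10 for the cyclins and 0.81 for the enzymes. Of the 6 enzyme genes, 4 were above 0 min at all 3 times, against 36% of all genes, and 1 was below, against 22.8%.

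**Figure D2:**
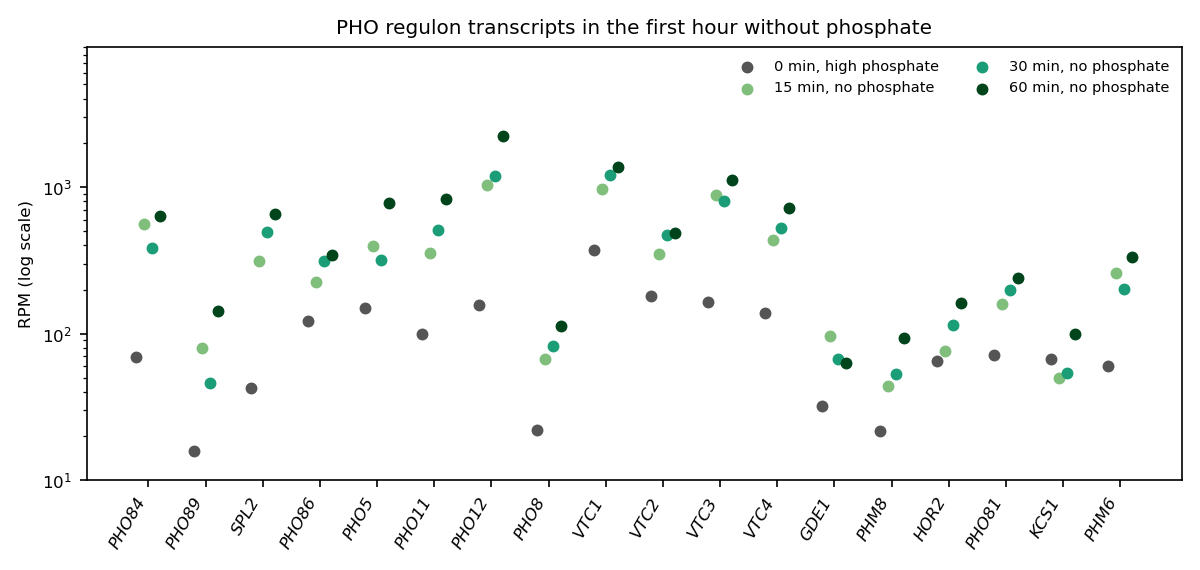
Levels in RPM, on a log axis, of the 18 tested PHO regulon genes in the library from high phosphate (0 min, grey) and the libraries at 15, 30 and 60 min without phosphate (light to dark green), 1 point a library. The green points lie above the grey point for every gene but KCS1, and the 15 min points of PHO84, PHO12 and VTC3 already lie at 561, 1031 and 879 RPM.

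Among the 82 risers 45 belonged to none of the gene lists used here. In the general stress response list 12 of 31 tested genes rose against 2.19% of all genes, and none fell against 0.455%. The median log2 change was 1.43 and 29 of the 31 stood above 0 min at all 3 times, against 36% of all genes. The list has 44 members in the table, and 13 of them, among them CTT1, GLC3 and TSL1, were not listed in some library of the 4. Since low members could be listed at 15 min only when high, the count over the 31 is no measure of the whole programme. Of the 6 members well above the 15 min limit at 0 min, 4 rose, against 3.57% of such genes. At all 3 times 5 of these members were above 0 min, as were 369 of the 1317 such genes.

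HSP42 was at 13.9 RPM at 0 min, 88.2 at 15 min, 124 at 30 min and 98.2 at 60 min, a rise of 7.36-fold (log2 change 2.88, SE 0.41; limma, adjusted p = 1.82e-04), but at 0 min it was under 29.4 RPM, so it could be tested only because it was higher at 15 min. HOR7, a small membrane protein gene and the most abundant of the list, was at 1178, 2898, 3775 and 4756 RPM, and HSP12, a membrane-protecting chaperone gene, at 338, 970, 1017 and 1988 RPM. HSP104, the disaggregase gene, was at 107, 312, 393 and 480 RPM. These rose 3.17-fold, 3.70-fold and 3.65-fold (limma, adjusted p = 1.20e-04, 0.0145 and 2.16e-04), all highest at 60 min. DDR48, a stress-induced gene, was at 424, 1292, 1115 and 1321 RPM, flat from 15 min on, but it overlaps YMR173W-A, which had almost the same values, so their reads cannot be told apart.

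Sugar phosphorylation was represented by HXK1, a hexokinase gene (30.9, 126, 114 and 203 RPM at 0, 15, 30 and 60 min), and GLK1, the glucokinase gene (35.9, 170, 126 and 172 RPM), which rose 4.63-fold and 4.31-fold. HXK1 shares its reads with the overlapping YFR052C-A. Of 12 trehalose and glycogen genes 7 were tested and 5 lacked a value in some library. The 7 tested were above 0 min at all 3 times, as were 36% of all genes, and among them UGP1, which makes UDP-glucose, was the one call, at 143, 361, 337 and 349 RPM (log2 change 1.29, SE 0.25; limma, adjusted p = 0.00404). TPS2 and PGM2 had log2 changes of 1.41 and 1.43 (limma, adjusted p = 0.081 for both). The share of reads taken by the whole list was 0.334% at 0 min, 0.859% at 15 min, 0.912% at 30 min and 1.19% at 60 min.

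Protein folding genes of the Hsf1 list moved less evenly, with 4 of 25 higher, against 2.19% of all genes, and a median log2 change of 0.70. HSP82, the inducible Hsp90 gene, was at 263, 652, 943 and 1057 RPM at 0, 15, 30 and 60 min, a rise of 3.30-fold (log2 change 1.72, SE 0.26; limma, adjusted p = 2.19e-04). Its constitutive partner HSC82 was at 1138, 929, 1204 and 1534 RPM and did not pass (log2 change 0.07). CUR1, a sorting factor for misfolded proteins, was at 40.0, 173, 132 and 135 RPM and rose 3.64-fold. HSP78, the mitochondrial disaggregase gene, was at 57.9, 150, 205 and 203 RPM and rose 3.18-fold. KAR2, the Hsp70 gene of the endoplasmic reticulum, was at 373, 799, 689 and 615 RPM and rose 1.87-fold. The number of risers was 10 without 15 min, 1 without 30 min and 5 without 60 min.

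Several carbon metabolism genes stood high at 15 min and kept near that level. NCE103, the carbonic anhydrase gene that supplies bicarbonate, was at 350 RPM at 0 min, 1472 at 15 min, 1622 at 30 min and 1497 at 60 min. The 3 first hour values lay within a narrow band (10.58 ± 0.07 log2 RPM, SD, n = 3, against 8.45 at 0 min), and the rise was 4.37-fold (log2 change 2.13, SE 0.20; limma, adjusted p = 1.59e-06). PYC1, encoding the pyruvate carboxylase that uses bicarbonate, was at 228, 723, 732 and 815 RPM and rose 3.31-fold. CIT2, the peroxisomal citrate synthase gene, was at 46.2, 182, 228 and 261 RPM and rose 4.79-fold (limma, adjusted p = 1.20e-04 for both).

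FMP43, a subunit gene of the mitochondrial pyruvate carrier, was at 3.83, 49.96, 30.8 and 24.5 RPM at 0, 15, 30 and 60 min. Its 8.75-fold rise (limma, adjusted p = 0.0157) rests on 14 to 47 reads a library, also starts under the 15 min limit, and was not called without 30 min or without 60 min (limma, adjusted p = 0.122 and 0.0972). With these, 4 of 22 genes of the TCA cycle and pyruvate list rose, against 2.19% of all genes, and the list's median log2 change was 0.37, so most of the cycle did not pass. COX5B, the alternative subunit of cytochrome oxidase known from low oxygen, was the one riser of 33 respiratory chain genes, at 52.9, 215, 195 and 249 RPM (4.13-fold; limma, adjusted p = 2.01e-04). The aldehyde dehydrogenase genes ALD4 (mitochondrial; 135, 561, 493 and 393 RPM) and ALD6 (cytosolic; 994, 2563, 2578 and 1983 RPM) rose 3.52-fold and 2.37-fold, highest at 15 and 30 min. GPD1, which makes glycerol 3-phosphate, was at 38.1, 168, 113 and 92.9 RPM and rose 3.16-fold, highest at 15 min.

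Further risers by the naming rule had little listed signal in high phosphate. TMA10, a ribosome-associated protein gene, was at 5.45, 49.96, 61.5 and 61.4 RPM at 0, 15, 30 and 60 min, RTC3 at 13.1, 52.9, 93.6 and 52.6 RPM, and BDH2, a dehydrogenase gene, at 9.69, 58.8, 30.1 and 66.6 RPM. YKL071W, an uncharacterized gene, was at 4.84, 52.9, 39.3 and 24.5 RPM. All 4 were under 29.4 RPM at 0 min, so they could be tested only because they were higher at 15 min. MSC1, a stress response gene, was at 47.0, 206, 176 and 217 RPM and rose 4.23-fold (limma, adjusted p = 2.01e-04).

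Genes for making ribosomes made up part of the falls. DBP2, an RNA helicase gene outside the ribosome biogenesis list, was at 707 RPM at 0 min, 244 at 15 min, 138 at 30 min and 121 at 60 min, each lower than the one before, and fell by 2.15 on the log2 scale (SE 0.33; limma, adjusted p = 4.08e-04). NSR1 was at 623, 270, 225 and 184 RPM and fell by 1.48 (SE 0.27; limma, adjusted p = 0.00186). Of 75 tested ribosome biogenesis genes 6 fell, against 0.455% of all genes, and none rose against 2.19%. Their median log2 change was -0.81 and 71 of the 75 were below 0 min at all 3 times, against 22.8% of all genes. The fallers were NSR1, NOP1 (fibrillarin; 601, 267, 280 and 291 RPM), YTM1 (216, 70.5, 97.5 and 70.1 RPM), NOG1 (346, 173, 138 and 163 RPM), NUG1 and RRP5. Among the 65 members well above the 15 min limit at 0 min, 21 fell, against 4.71% of such genes.

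These calls depended on the library at 30 min. The list had 26 fallers without 15 min, 0 without 30 min and 12 without 60 min, while NSR1 had a log2 change of -1.48 without 30 min (limma, adjusted p = 0.0975) and DBP2 one of -2.04 (limma, adjusted p = 0.0528). HAS1, UTP7, ROK1, HCA4 and RRP9, processing factors with all 3 values below 0 min, had log2 changes of -1.53, -1.38, -1.20, -1.33 and -1.24 and did not pass (limma, adjusted p = 0.0546, 0.0715, 0.0714, 0.0546 and 0.158). The largest subunits of RNA polymerase I, RPA190 (407, 170, 208 and 196 RPM at 0, 15, 30 and 60 min) and RPA135 (325, 168, 141 and 135 RPM), fell too, the 2 calls among 18 genes of RNA polymerases I and III, against 0.455% of all genes. The median log2 change of that list was -0.77, and its count was 4 without 15 min, 0 without 30 min and 2 without 60 min.

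Other fallers feed nucleotides, lipids or translation. IMD4, an IMP dehydrogenase gene for guanine nucleotides, was at 442, 232, 178 and 146 RPM, and AAH1, the adenine deaminase gene, at 379, 188, 122 and 147 RPM. They fell by 1.28 and 1.33 on the log2 scale (limma, adjusted p = 0.0153 and 0.0138). FAA4, a fatty acyl-CoA synthetase gene, was at 174, 52.9, 66.1 and 57.9 RPM and fell by 1.57, LIA1, an enzyme gene for hypusine in eIF5A, was at 201, 64.7, 76.6 and 77.1 RPM and fell by 1.47, and ALB1, a factor of large subunit export, fell by 1.15. The uridine permease gene FUI1 was at 131, 38.2, 47.8 and 54.3 RPM and did not pass (limma, adjusted p = 0.0576). Without 30 min none of the 17 fallers was called.

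The ribosomal protein genes did not pass. None of 137 cytosolic ones passed in either direction, with 0 calls by limma and a median log2 change of -0.22 between -0.62 and 0.55. Of all genes 2.19% rose and 0.455% fell. Yet 96 of them were below 0 min at all 3 times, against 22.8% of all genes. Their share of listed reads was 34.0% at 0 min, 30.6% at 15 min, 32.5% at 30 min and 29.2% at 60 min. RPL16B, with the lowest log2 change of them, was at 1186, 841, 740 and 733 RPM (log2 change -0.62; limma, adjusted p = 0.128). Translation factor genes also gave 0 calls of 31, with a median of -0.30 and TEF1 at 7572, 5053, 5134 and 5040 RPM (limma, adjusted p = 0.0579). Under quantile normalization 1 of the 31 fell. Among members well above the 15 min limit at 0 min, 3 of 27 translation factor genes fell, against 4.71% of such genes. There 1 of 136 ribosomal protein genes rose, against 3.57%, and none fell. The difference between these genes and those of ribosome assembly was not tested.

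**Figure D3:**
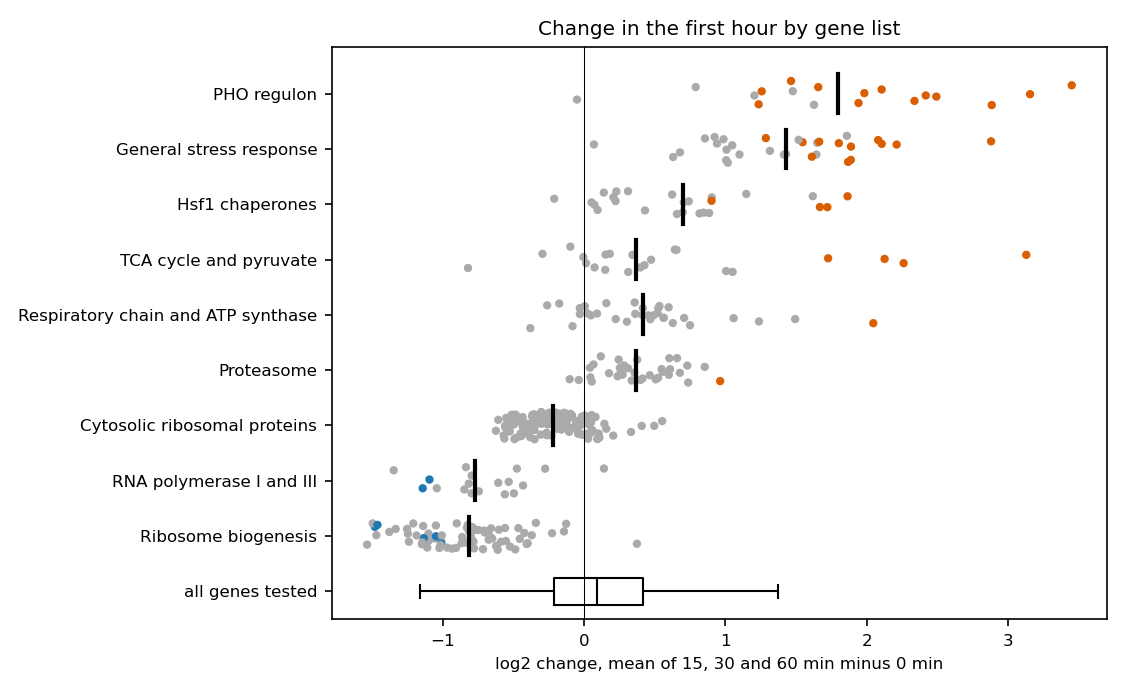
Log2 change in the first hour (mean of 15, 30 and 60 min minus 0 min) of the tested genes of 9 lists, 1 point a gene, in orange where called higher and blue where called lower by limma, with the list's median as a bar; the box shows the median and quartiles of all tested genes and its whiskers reach 1.5 times the box length. Medians run from 1.80 for the PHO regulon to -0.81 for ribosome biogenesis, around 0.09 for all genes.

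Scaling changed the sizes of these list medians but not their signs. With the libraries centred on their median, scaled to reads outside ribosomal protein genes, or quantile normalized, the medians were 1.70, 1.73 and 1.66 for the PHO regulon, 1.33, 1.36 and 1.22 for the stress response, -0.91, -0.88 and -0.88 for ribosome biogenesis, and -0.32, -0.29 and -0.16 for ribosomal proteins. The counts called were 10, 14 and 10 higher in the PHO regulon, 10, 12 and 9 higher in the stress response and 5, 10 and 4 lower in ribosome biogenesis.

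Few other lists had a call. One gene each rose in the proteasome list (RPN13, a ubiquitin receptor, of 34) and the glycolysis list (TDH1, a glyceraldehyde phosphate dehydrogenase gene, of 17), where 2.19% of all genes rose. The RPN13 call was lost under all 3 other scalings, yet 26 of the 34 proteasome genes were above 0 min at all 3 times, against 36% of all genes. The iron regulon had no call among 12 genes, with the ferric reductase gene FRE1 at 66.0, 32.3, 17.02 and 28.0 RPM at 0, 15, 30 and 60 min (log2 change -1.41; limma, adjusted p = 0.189) and the oxidase gene FET3 at 463, 309, 268 and 258 RPM. Histone, G1/S, G2/M, M/G1, pheromone, ergosterol, zinc, methionine, phospholipid, cell wall, hexose transporter, nitrogen and autophagy lists also had 0 calls by limma. Across the tested genes 571 had an unadjusted p under 0.05. ATG22, a vacuolar amino acid exporter gene, was the nearest of the autophagy list, at 27.9, 91.1, 64.2 and 78.9 RPM (limma, adjusted p = 0.061).

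The motifs shown above were counted in the same 300-base window of all genes, on both strands, with overlaps of a motif and its reverse complement counted once a gene; a window could be read for 3672 tested genes. CACGTG was held by 5.07% of these windows and CACGTG or CACGTT by 14.5%. In the PHO regulon CACGTG was in 13 of 18 (72.2%), and either motif in 17 of 18, but Pho4 sites helped to define such lists, so this is no finding. The same holds for AGGGG in the stress list and the heat shock element in the Hsf1 list. AGGGG was held by 24.2% of all windows, by 29 of 31 stress response genes and by 54 of the 65 genes called higher outside the PHO regulon that had a window (83.1%). Those 65 include the called genes of the stress list, so their share is partly set by how that list was made. GATGAG was held by 19.04% of all windows and by 15 of the 17 fallers, and AAAATTT by 27.2% of all and by 16 of the 17. The fallers include ribosome biogenesis and RNA polymerase genes, the kinds in which these motifs were found. The heat shock element was in 1.36% of all windows and in those of 12 of 25 Hsf1 genes. A match is only a run of letters and was not tested as a binding site.

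Within the hour few genes had a steady course that passed a test of slope over minutes, with 2 rising (0.0535% of 3738) and 1 falling (0.0268%) by limma, while 178 (4.76%) and 193 (5.16%) had an unadjusted p under 0.05. SSA1, a cytosolic Hsp70 gene, was at 1636 RPM at 0 min, 1671 at 15 min, 2453 at 30 min and 4185 at 60 min, so nearly all of its rise came after 15 min. ACO1, the mitochondrial aconitase gene, was at 156, 147, 303 and 692 RPM. PXR1, a ribosomal RNA processing gene, was at 275, 147, 111 and 47.3 RPM, each lower than the last. All 3 slopes had a limma adjusted p = 0.0317, none passed with median-centred libraries, where 354 genes had an unadjusted p under 0.05, and a slope on the square root of minutes called 50 higher and 17 lower.

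The library at 15 min differed from 0 min at least 2-fold upward for 396 genes (10.6%) and downward for 83 (2.22%). The counts were 170 (4.55%) and 128 (3.42%) at 30 min and 286 (7.65%) and 150 (4.01%) at 60 min. A few genes were named because their 15 min log2 level lay farthest above or below the mean of 0, 30 and 60 min. These are levels of 1 library each with no replicate check. JEN1, the lactate permease gene, was at 25.6 RPM at 0 min, 112 at 15 min, 51.7 at 30 min and 31.6 at 60 min, and TPO4, a polyamine exporter gene, at 16.3, 123, 62.8 and 42.1 RPM. Both were under 29.4 RPM at 0 min, so they could be tested only because they were higher at 15 min. TPO4 was also called higher over the first hour (limma, adjusted p = 0.0318) and was at least 2-fold above 0 min at all 3 times. TUL1, YDR391C, RSF2 and YSP3 also peaked there. In the other direction RPN4, the activator of proteasome genes, was at 67.4, 29.4, 104 and 112 RPM, and IDH1, of the mitochondrial isocitrate dehydrogenase, at 64.6, 35.3, 112 and 156 RPM. LTP1, CEG1, YPR169W-A and NMA111 also dipped at 15 min. RPN4 and YPR169W-A stood at the lowest listed level there, 10 reads.

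**Figure D4:**
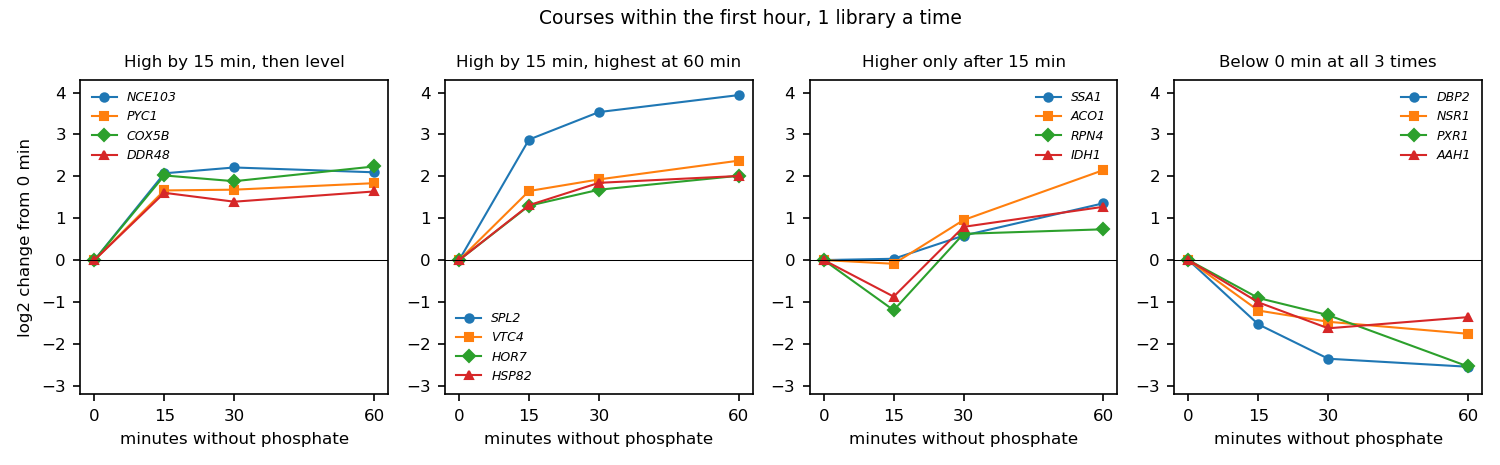
Log2 change from 0 min at 15, 30 and 60 min for 16 genes picked after their values were seen, 1 library a time, in 4 panels by course. NCE103, PYC1, COX5B and DDR48 reach their level by 15 min, SPL2, VTC4, HOR7 and HSP82 are highest at 60 min, SSA1, ACO1, RPN4 and IDH1 exceed 0 min by 30 min but hardly or not at 15 min, and DBP2, NSR1, PXR1 and AAH1 lie below 0 min throughout.

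The first hour was then set against the 16 later libraries of at least 100000 listed reads, from 105 to 360 min, to see which of its levels were early ones. Of 3692 genes, 5 (0.135%) were higher in the first hour and 9 (0.244%) lower (limma, adjusted p under 0.05), with 814 at an unadjusted p under 0.05. Higher in the first hour were ADH6, an alcohol dehydrogenase gene, ATR1, a multidrug exporter gene, CUR1, YPR036W-A and YLR108C. ADH6 was at 1079, 799 and 810 RPM in the first hour, against 254 to 559 RPM in the later libraries, without overlap (log2 difference 1.32, SE 0.23; limma, adjusted p = 0.0162). CUR1 was at 173, 132 and 135 RPM, against 28.4 to 101.4 RPM later.

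Lower in the first hour than later were 4 PHO regulon genes, PHO5, PHO11, PHO89 and VTC1, with HXT2, PRS4, PEX21, PRI1 and YPR022C. PHO5 was at 399, 318 and 774 RPM at 15, 30 and 60 min, against 785 to 6905 RPM later (log2 difference -3.02, SE 0.62; limma, adjusted p = 0.0329). PHO89 was at 79.4, 46.5 and 142 RPM, against 171 to 1325 RPM later (log2 difference -2.95). For both genes every first hour value lay under every later one. SPL2, at 312 to 650 RPM in the first hour against 497 to 1363 RPM later, overlapped and did not pass (limma, adjusted p = 0.131). All 14 calls were lost without 15 min or without 30 min, with 501 and 408 genes at an unadjusted p under 0.05, and 3 higher and 3 lower were called without 60 min.

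Against the nearest later libraries, those at 105, 120, 135 and 150 min, some of the rises stood lower again, in a comparison chosen after the values were seen and given without a test. Of the 82 risers, 28 had every first hour value above every value at 105 to 150 min, where 6.41% of 3726 genes did so, and 3 the reverse, against 5.29%. The risers were chosen for high first hour values, so that share is a description. CIT2 was at 182, 228 and 261 RPM in the first hour, against 72.6 to 99.3 RPM at 105 to 150 min. PYC1 was at 723, 732 and 815 RPM, against 352 to 486 RPM, and COX5B at 215, 195 and 249 RPM, against 77.6 to 162 RPM. NCE103, ALD4, ALD6, KAR2, CUR1, HSP42, TMA10, SNZ1 and GRX2 were also among the 28, but no gene of the PHO regulon was. Nearly all risers still lay above high phosphate, 76 of the 82 in all 4 of those libraries, as did 28.9% of the 3726 genes, again a description since the same 0 min library chose the risers.

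The fallers remained under high phosphate. All 17 still lay below 0 min at 105, 120, 135 and 150 min, as did 20.6% of 3726 genes, while 9 had every first hour value below every value at 105 to 150 min, as did 5.29%. The fallers were chosen for low first hour values against the same 0 min library, so both counts are descriptions. DBP2 was at 244, 138 and 121 RPM in the first hour, against 238 to 332 RPM, overlapping at 15 min, and NOP1 at 267, 280 and 291 RPM, against 325 to 447 RPM, without overlap. PHO84, at 561, 384 and 631 RPM in the first hour and 616 to 805 RPM at 105 to 150 min, overlapped, and so did VTC3, at 879, 808 and 1113 RPM, against 1001 to 1583 RPM.

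**Figure D5:**
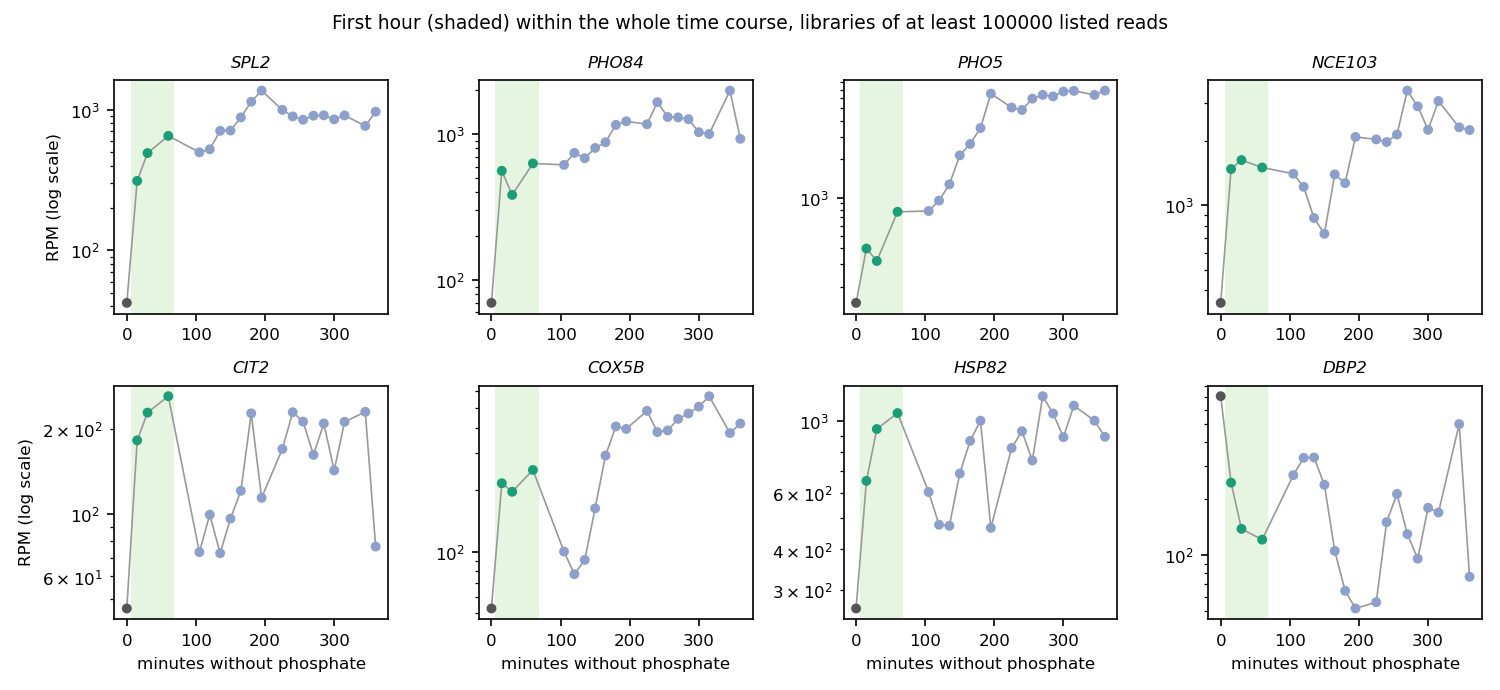
Levels in RPM, each panel with its own log axis, of 8 genes picked after their values were seen, at 0 min (grey), in the first hour (green, shaded) and in the later libraries of at least 100000 listed reads (blue), 1 library a point. CIT2, COX5B and HSP82 stand lower at 120 and 135 min than in the first hour, PHO5 reaches 6905 RPM at 360 min, and DBP2 stands at 121 RPM at 60 min and at 238 to 332 RPM at 105 to 150 min.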

How the data were processed

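RNA from frozen cells was extracted with a 96-well kit, made into cDNA and sequenced on an Illumina instrument, per the labels' protocols. Bowtie and the R64 build are named in the submitters' processing notes, without versions, and strand use is not given in the sources used here. The authors deposited 1 table whose unit is not given in the sources used here beyond normalization to the first time point, per the labels. The deposited values were read as log2 RPM, since 2 to the power of each column, 0 min included, sums to 1000000. The lowest value of a column was taken as 10 reads, at which 93.4 to 94.7% of values in the 4 libraries are whole reads within 0.01. Since the values are not counts, limma 3.58.1 in R 4.3.3 (with trend and robust moderation) compared the mean of 15, 30 and 60 min with 0 min on the deposited log2 scale, with no pseudocount, Benjamini-Hochberg adjusted over 3738 genes. The test was also tried on simulated data. Named genes were the 10 largest called rises and 10 largest called falls, the 12 largest each way by the least changed library with at least 50 reads on average, the PHO lists, up to 4 members of each other list and the 6 highest and 6 lowest at 15 min; not all are printed, and others were chosen after their values were seen. Members and lists were chosen with earlier results of these data known. Python 3.11.15 and matplotlib 3.10.9 drew the figures.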

Additional observations from a re-analysis of the deposited data

Results flagged for a closer look

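The library at 45 min was not used in the comparisons for its 18553 listed reads, but some of the first hour risers were also high there. Of the genes called higher in the first hour, 4 stood at or above its lowest listed level of 539 RPM at 0 min. All 4 were listed at 45 min, and 4 were at least 2-fold above 0 min there. They were chosen as higher than the same 0 min library, so this is a description. How many of all genes at that level did so was not counted. HOR7 was at 12612 RPM at 45 min against 1178 RPM at 0 min, YNL208W was 5.47-fold above 0 min, YNL134C 3.69-fold and ALD6 2.39-fold. These are values of 1 shallow library with no replicate check. The library also stood apart from its neighbours in time. Of 275 genes listed there that were at 539 RPM or more at 30 and 60 min, 154 were above both and 88 below both. PHO5 was at 5984 RPM at 45 min, against 318 RPM at 30 min and 774 RPM at 60 min, and PHO89 was at 755 RPM, against 46.5 and 142 RPM. Neither gene is among the 275. PHO5 at 30 min and PHO89 at both times were under 539 RPM, so any listed value at 45 min had to be higher than these.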

How the results depend on the processing

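Of 51 genes followed over 12 settings (551 combinations), the 35 called ones kept their sign in each, with 83 calls lost and 17 gained over all 51. The sign changed in 6 combinations, all of PHO2 and KCS1, which were near 0 and not called (PHO2 at 0.09 and, with median centring, -0.01; KCS1 at -0.05 and, with 45 min, 0.78). Against 82 genes higher and 17 lower, limma without trend or robust moderation gave 1 and 0 (458 genes at an unadjusted p under 0.05). All deeper libraries in one fit gave 84 and 1, of which 66 and 0 were shared (442 unadjusted), and adding 45 min gave 12 and 0 of 601 genes (34 unadjusted). Median centring gave 53 higher and quantile normalization 51. Genes well above the 15 min limit, a choice made after seeing the data, gave 47 and 62 of 1317. Leaving out 1 library gave 32 to 108 higher and 0 to 67 lower, with 389 genes at an unadjusted p under 0.05 where none was lower.

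For the 2-fold rule (109 higher, 18 lower), median centring gave 40 lower, scaling to reads outside ribosomal protein genes 32 and quantile normalization 42. A 1.5-fold rule gave 280 and 146, a 3-fold rule 35 and 0, and genes well above the limit 18 higher. Leaving out a library gave 128 to 177 and 30 to 57. For the slope (2 and 1), the square root of minutes gave 50 and 17, median centring 0 and 0 (354 unadjusted), and leaving out a library 29 to 53 and 5 to 30. For the first hour against later times (5 and 9), median centring gave 14 higher, all later libraries 1, and leaving out a library 0 to 3 and 0 to 3 (408 to 501 unadjusted). The cause of these shifts was not tested.

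No paired analysis was possible because 0 min is a single library and each time has 1. Depth limits the set: at 15 min, genes under 29.4 RPM had no value, and counting error is largest there.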
